A study of Mus musculus with 6 samples.

Results

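The genes of cholesterol synthesis, of its control by SREBP, and of fatty acid synthesis, elongation and desaturation were examined in RNA-seq libraries of mouse thyroid. They form a list of 33 genes, chosen by symbol and taken from a count table of 21878 genes. All 33 were present and all passed the filter on low counts. The comparison set 3 libraries of Thy-Tet1+/+ thyroid against 3 libraries labelled Thy-Tet1-/-, all from female mice of 12 weeks without treatment. The Thy-Tet1-/- mice came from crosses of Tet1 flox/+ mice with a transgene that drives Cre recombinase from the thyroid peroxidase promoter, so that Tet1, which encodes a 5-methylcytosine dioxygenase, was targeted in follicular epithelial cells and not in the other cells of the gland. Wild-type littermates, named Thy-Tet1+/+, were the controls, and whether they carried the Cre transgene is not given in the sources used here. Each library is numbered as a biosample of its own, and p-values measure the spread between these samples.

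The Tet1 counts went against the labels. Tet1 was at 4.31 ± 1.21 CPM (counts scaled to library size; SD, n = 3) in Thy-Tet1+/+ and at 10.4 ± 1.6 CPM in the libraries labelled Thy-Tet1-/-, with no overlap between the groups. The floxed exons are not named in the sources used here, and counts of the whole gene can include reads outside them. Every direction given here is therefore that of the libraries labelled Thy-Tet1-/- relative to Thy-Tet1+/+.

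Libraries held between 8867683 and 19950898 counts, and 3 counts, taken as the smallest level that can be told from 0, were 0.1504 to 0.338 CPM, a floor for counting error alone. The library protocol speaks of retinas, whereas Tg, the thyroglobulin gene, took 190892 to 313667 CPM. Of 10 follicular cell markers 9 were tested, with 5 above and 4 below 0 on the log2 scale, and Slc26a4 had 1 to 5 counts per library. Their summed level, mostly Tg, was 254346 to 315730 CPM in Thy-Tet1+/+ and 192568 to 238239 CPM in the libraries labelled Thy-Tet1-/-. Tissue around the gland also differed between libraries. The 10 white and brown adipocyte markers summed to 212 to 702 CPM in Thy-Tet1+/+ and 492 to 2216 CPM in the libraries labelled Thy-Tet1-/-, with all 10 above 0 on the log2 scale, 3 of them past the limits below and none at 0 counts. The 10 skeletal muscle markers summed to 978 to 7633 CPM and 19.7 to 8632 CPM. The 3 parathyroid markers summed to 134.5 CPM in Thy-Tet1+/+ replicate 2, 19022 CPM in Thy-Tet1+/+ replicate 3 and 6597 to 12797 CPM elsewhere. The 5 lymphocyte markers ranged from 11.5 to 44.3 CPM in sum, apart from 189.5 CPM in replicate 3 of the group labelled Thy-Tet1-/-. In bulk tissue, fewer cells of a type and less RNA per cell cannot be told apart. Apart from cell types, the 8 clock output genes listed also differed between the groups. All 8 had groups that did not overlap (100%, against 26.8% of all genes). Past the limits below were 6 higher and 1 lower (87.5%, against 9.2% of all genes), with Dbp at 2.93 and Per1 at -1.24 on the log2 scale. The part of this difference in the lipid genes was not tested.

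Cholesterol is built from acetyl-CoA in a long chain of enzymes. The first part makes mevalonate and converts it to farnesyl diphosphate, and the second joins this to squalene, closes the ring of lanosterol and trims it to cholesterol. When sterols are low in the endoplasmic reticulum, SCAP escorts the SREBP precursors to the Golgi for cleavage, and the released factors switch on the genes of the pathway, together with NF-Y, which binds CCAAT. INSIG proteins hold SCAP back when sterols are plentiful. SREBP-2, from Srebf2, acts mainly on sterol genes and SREBP-1c, from Srebf1, mainly on fatty acid genes. Fatty acids are made in the cytosol from citrate by ACLY, the acetyl-CoA carboxylases and FASN, with NADPH partly from malic enzyme, and are then lengthened and desaturated. Fat cells are a main site of this synthesis, and follicular cells need membrane lipid for the thyroglobulin they secrete.

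The letters of these binding sites were looked for in promoters, a feature that the choice of members did not use. Promoters of 26 of the 33 members were matched in RefSeq (GRCm38.p6), each from 250 bases before to 50 after a start. Fdps, Fdft1, Sqle, Stard4, Scd1, Scd2 and Fads1 were not matched. The core of the sterol response element, TCACNCCAC on either strand, was in the promoter of 1 member, Hmgcs1 (3.85% of those matched), against 1.44% of all 27025 genes with a promoter. CCAAT on either strand was in 22 of the 26 (84.6%), against 41.1% of all genes and 37.4% of all 32851 promoters. Scap, Acaca, Elovl6 and Fads2 held none in this window. The E-box CACGTG was in 6 (23.1%), against 8.09% of all genes. The shares of all genes given for these motifs include genes that were not tested here, whereas every member was tested. The motifs can share letters, since TCACNCCAC ends in CAC and CACGTG begins with it, and a match describes the letters only. The stretches shown are the sterol response element of Hmgcs1 and CCAAT boxes of 5 genes described below, of the mevalonate arm (Mvd), of the sterol arm (Cyp51, Msmo1) and of fatty acid synthesis (Fasn, Acacb). They are read along the gene's strand, with the motif in capitals.
Hmgcs1, chr13:119690204-119690233, plus strand: cgtcaccgtcTCACCCCACttcccaggtcc
Mvd, chr8:122443430-122443459, minus strand: ggccagcgggCCAATcatatggcagcgcgt
Cyp51, chr5:4104707-4104736, minus strand: ctgtccgccaCCAATctggtcctgagatcc
Msmo1, chr8:64733614-64733643, minus strand: gtggggcggaCCAATtacgacaggcgagcc
Fasn, chr11:120824590-120824619, minus strand: gcctcggtgtCCAATtggtttcgatgtgga
Acacb, chr5:114165421-114165450, plus strand: acaagggaccCCAATagccttgccccacgc
The motifs start 137 bases before a RefSeq transcription start in Hmgcs1, 27 in Mvd, 29 in Cyp51, 55 in Msmo1, 62 in Fasn and 87 in Acacb. For Fasn and Acacb this is a start within the gene. Their stretches lie inside the gene spans, chr11:120805958-120825166 and chr5:114146321-114250761. Msmo1 has CCAAT at 3 places upstream of its start and Mvd at a pair of places. Of the genes described below, CCAAT was in the promoters of Hmgcs1 and Lss, which were steady, of Mvd, which was lower, and of Fasn and Acacb, which spread widely, but not in those of Scap and Fads2.

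Across the list the groups differed little, and what differences there were lay in single genes. Of the 33 members, 13 had a log2 fold change above 0 and 20 below, where 50.1% of all genes tested were above, with a median of -0.08 against 0.0006 over these 14143 genes. A gene was called when its fold change exceeded 1.5 in either direction (0.585 on the log2 scale) and its unadjusted p was under 0.05 in edgeR's quasi-likelihood test. By this rule 2 members were called, Mvd and Fads2, both lower (6.06% of the members, against 9.2% of all genes tested, or 3.66% called lower). No member had an adjusted p under 0.05 in that test, against 0.113% of all genes, and 4 had an unadjusted p under 0.05 (Mvd, Scap, Fads1 and Fads2), against 18.9%. DESeq2 gave 3 of the 33 members an adjusted p under 0.05, and 1210 of all 14143 genes tested. The groups did not overlap in 7 members, 1 higher and 6 lower (21.2%, against 26.8% of all genes).

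**Figure D1:**
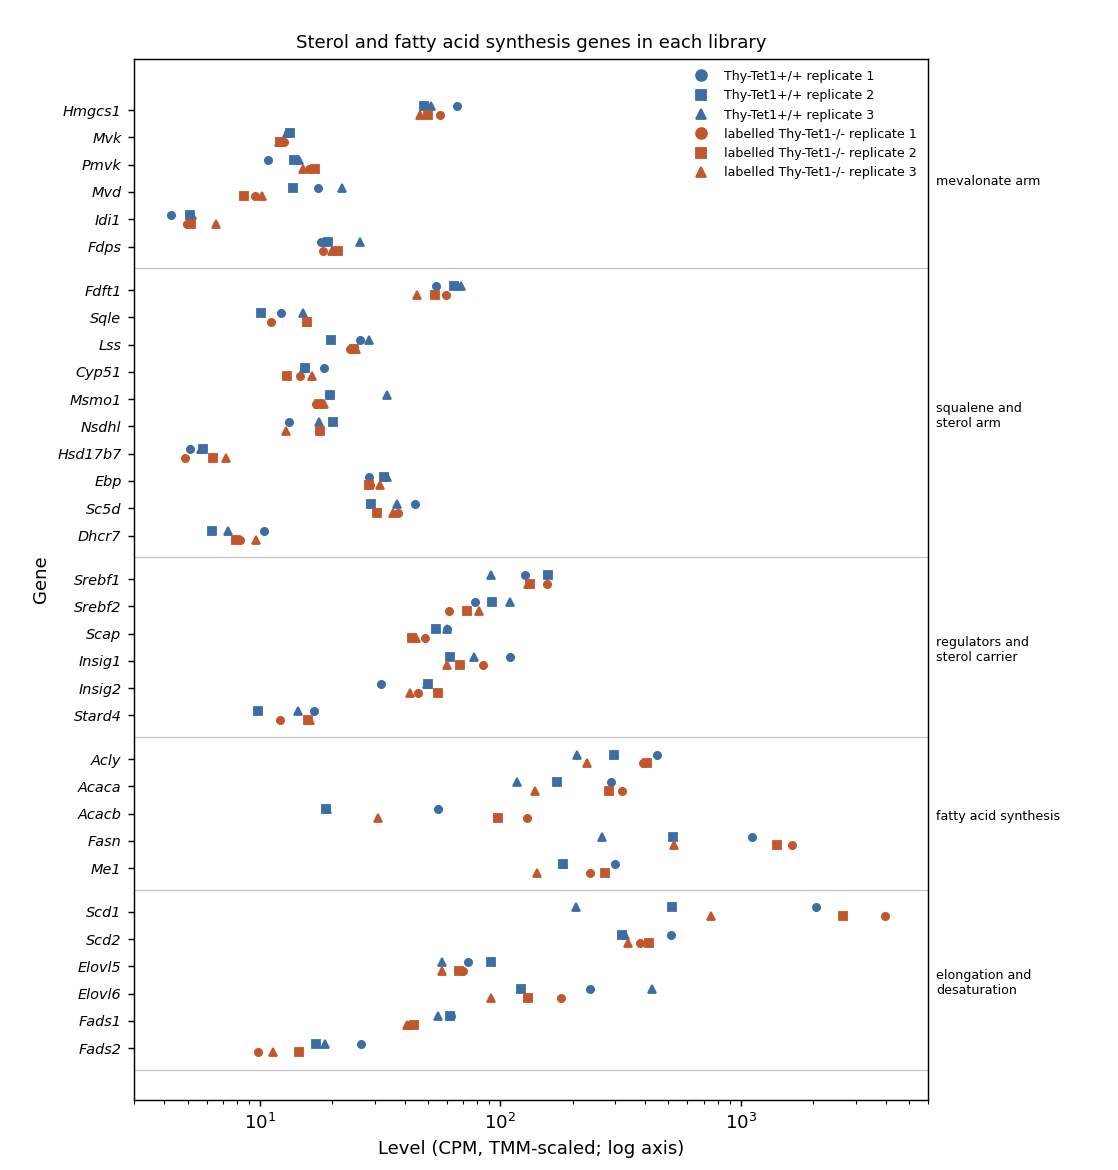
Level of each of the 33 genes (rows, grouped by role) in CPM on a log axis, 1 point per library, blue for Thy-Tet1+/+ and orange for libraries labelled Thy-Tet1-/-. Most sterol genes show points bunched within a factor below 2, whereas Scd1 spreads from 207 to 3969.9 CPM and Fasn from 264 to 1626 CPM.

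Per kilobase of transcript, the highest mean levels in these thyroids were those of fatty acid genes. Scd1, the stearoyl-CoA desaturase of fat and liver, was at 192 CPM per kb in Thy-Tet1+/+ and 509 in the libraries labelled Thy-Tet1-/-. In Thy-Tet1+/+ it was followed by Acly at 72.0, Scd2 at 71.2, Me1 at 67.1 and Fasn at 63.1 CPM per kb, and in the libraries labelled Thy-Tet1-/- by Fasn at 118 and Acly at 77.5 CPM per kb. The order of Fasn thus differed between the groups, and both it and Scd1 varied with the library. Over all libraries the highest sterol enzyme was Ebp, a sterol isomerase, at 17.5 CPM per kb. Hsd17b7, a sterol reductase, was the lowest of the list at 1.27 CPM per kb. Scd1 and Fasn were also among the 3 members with the widest spread between libraries.

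The mevalonate and sterol genes were held close to one level in all 6 libraries, apart from Mvd. Without Mvd, the 15 genes had log2 fold changes from -0.45 to 0.29 with standard errors of 0.12 to 0.25. None was called, and the lowest unadjusted p was 0.1003. The ratio of the highest to the lowest library was 1.52 at the median (1.11 to 1.96), while over all genes tested the median ratio was 1.72. Summed over the 6 mevalonate genes, the level was 129.7, 113 and 132 CPM in Thy-Tet1+/+ and 117, 114 and 110.01 CPM in the libraries labelled Thy-Tet1-/- (exact permutation test, two-sided, p = 0.3). Summed over the 10 genes from squalene to cholesterol it was 231, 223.1 and 263 CPM against 222.7, 216 and 218 CPM (p = 0.1 by the same exact test, the smallest that 3 against 3 allows). The sums of the sterol arm did not overlap, by a margin far below the spread between replicates, and those of the mevalonate arm did.

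Hmgcs1, which makes the substrate of the rate-limiting step, showed the steadiness of the entry to the pathway. It was at 66.1, 48.2 and 51.7 CPM in Thy-Tet1+/+ and at 55.8, 50.003 and 46.3 CPM in the libraries labelled Thy-Tet1-/-, and the groups overlapped. Its log2 fold change was -0.12 ± 0.15 (SE). Mvk, the mevalonate kinase, varied least of the list, at 13.1, 13.3 and 12.9 CPM against 12.6, 12.1 and 12.04 CPM. Its groups did not overlap, although the difference of -0.10 on the log2 scale was smaller than its standard error of 0.14. Pmvk, the next kinase, was the only member whose groups lay apart with the higher values in the libraries labelled Thy-Tet1-/-, at 10.8, 13.9 and 14.6 CPM against 16.0, 16.9 and 15.0 CPM. Its log2 fold change of 0.29 had an unadjusted p of 0.141. Idi1 and Fdps, which isomerise and condense the isoprene units, had log2 fold changes of 0.19 and -0.09.

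Mvd, the decarboxylase that makes isopentenyl diphosphate, was the exception in the arm. It was at 17.4, 13.7 and 21.9 CPM in Thy-Tet1+/+ and at 9.53, 8.59 and 10.2 CPM in the libraries labelled Thy-Tet1-/-. All 3 of these lay below every Thy-Tet1+/+ library, and they varied less among themselves (SD 0.791 against 4.12 CPM). The log2 fold change was -0.91 ± 0.21 (SE; unadjusted p = 0.0041, adjusted p = 0.112 by edgeR's quasi-likelihood test). The gene lies at chr8:122433596-122443422, minus strand (GRCm38). Mvd stayed past both limits in each of the 14 alternatives run, from -1.06 to -0.70. The smallest of these differences came with scaling to the follicular markers, by the mean of their log levels, which moved the median of all genes to 0.21. Of these markers Tshr differed most, at -2.16 on the log2 scale, while the median of the 9 tested was 0.12. Their part in the Mvd difference was not tested.

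Of the genes from squalene to cholesterol, Msmo1, a methylsterol monooxygenase, had the largest difference. It was at 19.3, 19.6 and 33.7 CPM in Thy-Tet1+/+ and at 17.2, 17.6 and 18.5 CPM in the libraries labelled Thy-Tet1-/-. The groups lay apart, but Thy-Tet1+/+ replicate 3, which also had the highest parathyroid marker level, carried most of the distance; the part of that tissue was not tested. The log2 fold change was -0.45 ± 0.24 (SE; unadjusted p = 0.1003), and -0.13 without that library. The others gave values between -0.25 for Fdft1, the squalene synthase, and 0.19 for Sqle, the squalene epoxidase. Lss, which closes the sterol ring, was at 26.0, 19.8 and 28.4 CPM against 23.6, 24.6 and 25.0 CPM, a difference of -0.02 ± 0.16 (SE) on the log2 scale. Cyp51 was at -0.15, Ebp at -0.10, Nsdhl and Sc5d at -0.08, Dhcr7, which makes the last step to cholesterol, at 0.11 and Hsd17b7 at 0.16. Exons of Fdft1 overlap those of Ctsb by 774 bases and exons of Cyp51 overlap those of Akap9 by 166 bases, on opposite strands, so that reads may be shared where counting ignored strand.

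Among the regulators, Scap had the clearest difference. Scap, the escort of the SREBP precursors, was at 59.8, 53.9 and 60.1 CPM in Thy-Tet1+/+ and at 48.6, 43.0 and 44.6 CPM in the libraries labelled Thy-Tet1-/-. The groups did not overlap. The log2 fold change was -0.35 ± 0.11 (SE; unadjusted p = 0.013, adjusted p = 0.161 by edgeR's quasi-likelihood test), below the limit of fold. With scaling to the follicular markers it was -0.14, with an unadjusted p of 0.291, while the median of all genes moved to 0.21. A transcript that the count table does not list overlaps 985 bases of Scap exon on the other strand.

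Srebf2 was at 78.8, 92.0 and 109 CPM in Thy-Tet1+/+ and at 61.3, 72.9 and 81.6 CPM in the libraries labelled Thy-Tet1-/-. Only 1 library of the latter, replicate 3, reached into the range of Thy-Tet1+/+, and the log2 fold change was -0.38 ± 0.16 (SE; unadjusted p = 0.056). Srebf1 was at 127, 157 and 91.2 CPM against 157, 133 and 130.03 CPM, with overlapping groups. Its log2 fold change was 0.16 ± 0.21 (SE), and -0.0232 without Thy-Tet1+/+ replicate 3, so that its direction turned. Insig1, itself a target of SREBP, was at 109.6, 61.6 and 77.3 CPM against 85.0, 68.0 and 60.0 CPM. Insig2, its paralog, was at 31.9, 50.001 and 49.6 CPM against 45.4, 55.3 and 42.3 CPM. Both overlapped between the groups, and within Thy-Tet1+/+ replicate 1 had the highest Insig1 and the lowest Insig2. The log2 fold change of Insig1 was -0.22. It was -0.59, past both limits, with the adipocyte marker level as a covariate, a fit added after the data had been seen. In none of the other alternatives was Insig1 past them. Stard4, a carrier of cholesterol between membranes, had a log2 fold change of 0.11 ± 0.24 (SE).

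**Figure D2:**
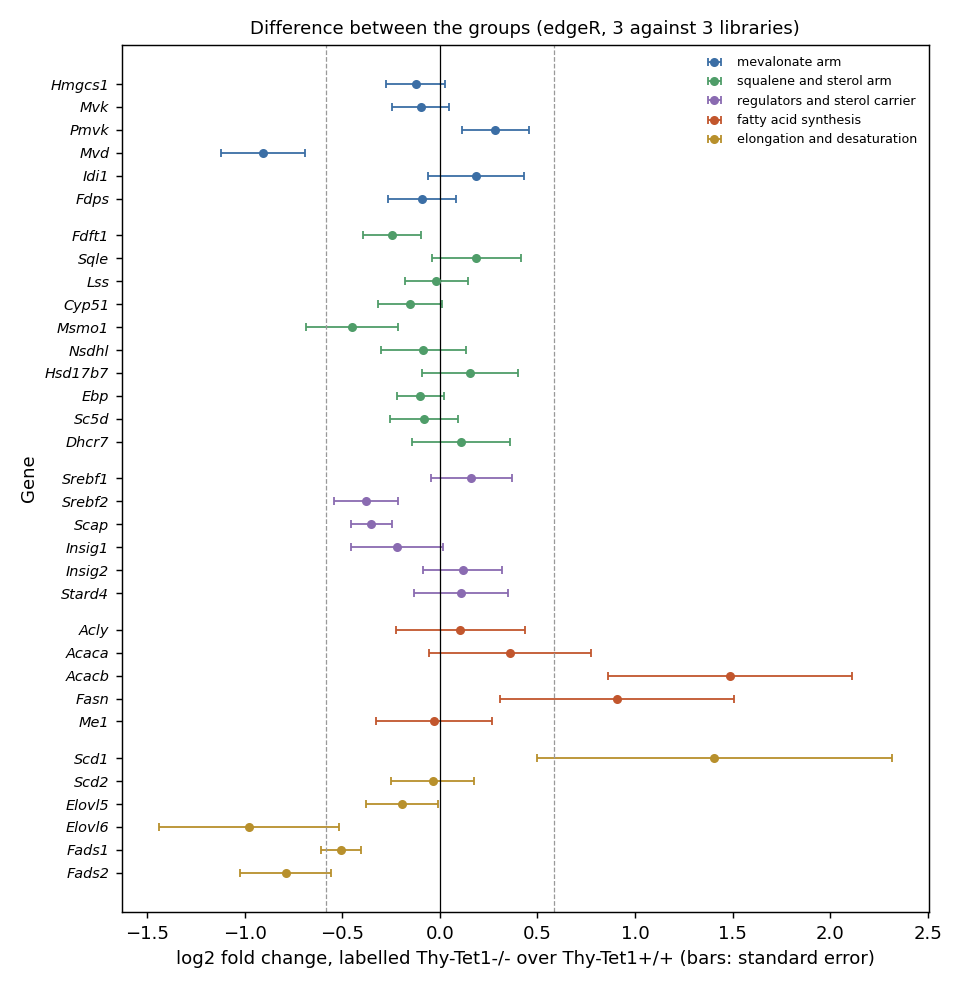
Log2 fold change of each member, libraries labelled Thy-Tet1-/- over Thy-Tet1+/+, with bars of 1 standard error and dashed lines at a fold of 1.5, coloured by role. Most sterol genes sit near 0 with short bars, and Acacb, Fasn and Scd1 lie far above 0 with the longest bars. Elovl6 lies farthest below 0. Its bar and those of Mvd, Fads1 and Fads2, among others, do not reach 0.

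The genes of fatty acid synthesis differed between libraries far more than between groups. Their summed level was 2209, 1191 and 791 CPM in Thy-Tet1+/+ and 2703, 2468 and 1068 CPM in the libraries labelled Thy-Tet1-/- (exact permutation test, two-sided, p = 0.3). None of the 5 genes was called and none had groups that lay apart. The ratio of the highest to the lowest library was 2.10 to 6.85, against 1.72 at the median of all genes.

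Fasn, the fatty acid synthase, was at 1117, 520.4 and 264 CPM in Thy-Tet1+/+ and at 1626, 1409 and 527 CPM in the libraries labelled Thy-Tet1-/-. In both groups replicate 1 was the highest and replicate 3 the lowest. The log2 fold change was 0.91 ± 0.60 (SE; unadjusted p = 0.175), and 1.597 without Thy-Tet1+/+ replicate 1, past both limits, and 0.54 without Thy-Tet1+/+ replicate 3. Acacb, the acetyl-CoA carboxylase of the mitochondrial surface, was at 55.2, 18.9 and 19.0 CPM against 129, 97.9 and 30.9 CPM, a log2 fold change of 1.49 ± 0.63 (SE; unadjusted p = 0.0501), just outside the limit of p. In 9 of the 14 alternatives Acacb was past both limits, and over the libraries left out its value ran from 1.05 to 2.18, the highest without Thy-Tet1+/+ replicate 1. Its cytosolic counterpart Acaca was at 289, 172 and 117 CPM against 319, 283 and 139 CPM, a log2 fold change of 0.36 ± 0.41 (SE). The ratio of Acacb to Acaca was 0.110 to 0.191 in Thy-Tet1+/+ and 0.222 to 0.405 in the libraries labelled Thy-Tet1-/-, so that this ratio, picked after the values were seen, lay apart although neither gene did. Acly, the ATP citrate lyase, and Me1, the malic enzyme, had log2 fold changes of 0.11 and -0.03.

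Scd1 spread most of all members, 19.2-fold from the lowest to the highest library. It was at 2058, 519 and 207 CPM in Thy-Tet1+/+ and at 3969.9, 2656 and 751 CPM in the libraries labelled Thy-Tet1-/-. The groups overlapped, and the log2 fold change was 1.41 ± 0.91 (SE; unadjusted p = 0.167). It was 2.76 (unadjusted p = 0.019), past both limits, without Thy-Tet1+/+ replicate 1, 0.93 without Thy-Tet1+/+ replicate 3 and 0.87 without the library labelled Thy-Tet1-/- replicate 1. Scd2, the neighbouring desaturase gene on chromosome 19 and the form of brain and other tissues, was at 513, 321 and 331 CPM against 381, 416 and 338 CPM and spread 1.599-fold. The ratio of Scd1 to Scd2 ran from 0.624 to 10.4 over the 6 libraries.

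The spread of Scd1 ran beside that of some adipocyte genes more closely than others. Adipoq, which encodes adiponectin, was at 67.2, 16.6 and 6.16 CPM in Thy-Tet1+/+ and at 124, 57.5 and 27.4 CPM in the libraries labelled Thy-Tet1-/-, with a log2 fold change of 1.24 ± 0.90 (SE). The ratio of Scd1 to Adipoq was 30.7, 31.3 and 33.5 in the former and 32.0, 46.2 and 27.4 in the latter, a range of 1.69-fold. To Plin1, the perilipin of fat droplets, the ratio of Scd1 ran from 41.9 to 59.4, or 1.42-fold. Its range was 1.502-fold to Cidec and 1.72-fold to Retn, but 2.87-fold to Lep, 3.34-fold to Cidea, 3.65-fold to Cfd, 4.40-fold to Ucp1, 4.68-fold to Fabp4 and 4.87-fold to Lipe. To Adipoq, the ratio of other members was less even than that of Scd1, with a range of 3.27-fold for Fasn, 3.75-fold for Acacb, 7.38-fold for Acaca, 10.7-fold for Acly and 48.4-fold for Elovl6. With the adipocyte marker level as a covariate, added after the data had been seen, the log2 fold change was -0.28 for Scd1 (unadjusted p = 0.337), -0.30 for Fasn and 0.14 for Acacb. In the same fit it was -0.51 for Acaca (unadjusted p = 0.032) and -0.53 for Acly (unadjusted p = 0.043), with adjusted p-values of 0.291 and 0.309. The part of fat tissue in these values was not tested beyond this fit of 6 libraries.

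**Figure D3:**
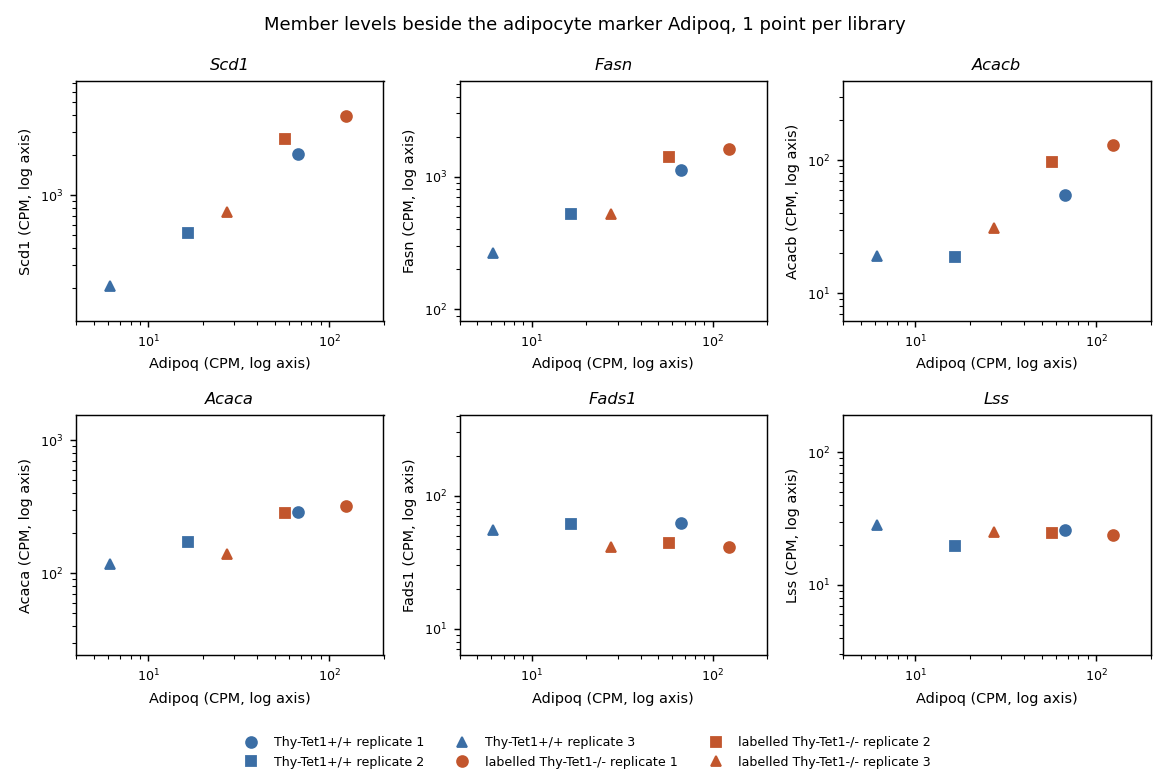
Level of 6 members against the level of Adipoq in the same library, both in CPM on log axes of equal span for the members, 1 point per library. Scd1, Fasn and Acacb climb with Adipoq across both groups, Fads1 and Lss stay level, and the 3 orange points of Fads1 lie below the 3 blue ones at every Adipoq level.

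The desaturases of polyunsaturated fatty acids had lower values in the libraries labelled Thy-Tet1-/-, and their groups lay apart. Fads1 and Fads2, neighbours on chromosome 19 (chr19:10182877-10196874 and chr19:10062765-10101503), encode the front-end desaturases that turn dietary linoleic and linolenic acid into arachidonic acid and its omega-3 counterparts. Fads1 was at 62.5, 61.8 and 55.0 CPM in Thy-Tet1+/+ and at 41.5, 43.8 and 40.9 CPM in the libraries labelled Thy-Tet1-/-. Its values were close within each group and the groups lay well apart. The log2 fold change was -0.51 ± 0.10 (SE; unadjusted p = 0.0019, adjusted p = 0.0965 by edgeR's quasi-likelihood test), the lowest adjusted p of the list, although the fold stayed under the limit.

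Fads2 was at 26.2, 17.1 and 18.7 CPM in Thy-Tet1+/+ and at 9.81, 14.6 and 11.4 CPM in the libraries labelled Thy-Tet1-/-, with the groups closer but apart. Its log2 fold change was -0.79 ± 0.23 (SE; unadjusted p = 0.012, adjusted p = 0.156). With the adipocyte covariate the values were -0.57 for Fads1 (unadjusted p = 0.0063) and -0.93 for Fads2 (unadjusted p = 0.021). With scaling to the follicular markers they were -0.29 and -0.58, and Fads2 was no longer past the limit of fold. That scaling moved the median of all genes to 0.21. Fads1 and Fads2 thus differed in the same direction under each of these fits. Fads3, which lies beside Fads2, went the other way, with a log2 fold change of 0.34 (unadjusted p = 0.096 by edgeR's quasi-likelihood test).

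The elongases were less clear. Elovl6, which lengthens palmitate to stearate, was at 236, 122 and 429 CPM in Thy-Tet1+/+ and at 179, 129.9 and 91.2 CPM in the libraries labelled Thy-Tet1-/-. The groups overlapped. The parathyroid markers summed highest in Thy-Tet1+/+ replicate 3, at 19022 CPM, and next in the library labelled Thy-Tet1-/- replicate 2, at 12797 CPM. Their part in the Elovl6 values was not tested. In Elovl6, Thy-Tet1+/+ replicate 3 stood far above the rest. The log2 fold change was -0.98 ± 0.46 (SE; unadjusted p = 0.073), -0.43 without that library and -1.32, past both limits, without Thy-Tet1+/+ replicate 2. In this it differed from Scd1 and Fasn, which were at their lowest in Thy-Tet1+/+ replicate 3. Elovl5, which lengthens polyunsaturated chains, had a log2 fold change of -0.19 ± 0.18 (SE).

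The wider set of lipid genes, 106 listed by function, gave 101 that were tested. Of these, 59 were above and 42 below 0 on the log2 scale, with a median of 0.05. Called were 9 higher and 6 lower (14.9%, against 9.2% of all genes, 5.54% called higher and 3.66% lower). None had an adjusted p under 0.05 by edgeR, and 26 had an unadjusted p under 0.05, where 18.9% of all genes did. The groups lay apart in 27 (26.7%, against 26.8% of all genes), 9 higher and 18 lower. Over all genes, 12.5% lay apart with higher values and 14.3% with lower values.

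Elovl2, which elongates the products of the front-end desaturases, was among the called genes and stood beside Fads1 and Fads2. It was at 32.9, 28.3 and 28.1 CPM in Thy-Tet1+/+ and at 17.8, 19.97 and 13.8 CPM in the libraries labelled Thy-Tet1-/-, and the groups lay apart. Its log2 fold change was -0.79 ± 0.17 (SE; adjusted p = 0.102 by edgeR's quasi-likelihood test).

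Of 14 tested genes that cleave, carry or degrade SREBP and its partners, 9 were below 0, where 50.1% of all genes were above. Only 1 was called (7.14%, against 9.2% of all genes). It was Sec24d, a coat protein of the vesicles that leave the endoplasmic reticulum, at 146, 154 and 165 CPM in Thy-Tet1+/+ and 76.0, 71.6 and 87.4 CPM in those labelled Thy-Tet1-/-. Its adjusted p was the lowest of the related genes, with a log2 fold change of -0.98 ± 0.12 (SE; unadjusted p = 8.68e-05, adjusted p = 0.0555 by edgeR's quasi-likelihood test). SEC24 proteins load many cargoes besides SCAP. In 6 of the 14 (42.9%, against 26.8% of all genes) the groups lay apart, all with lower values, as they did for Scap.

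**Figure D4:**
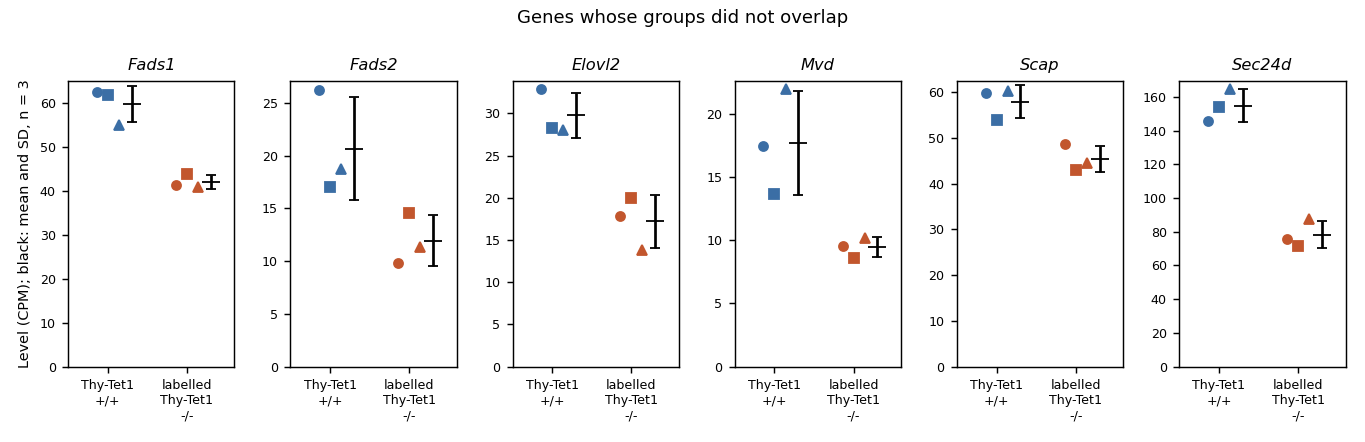
Level in CPM of 6 genes with lower values in the libraries labelled Thy-Tet1-/- (orange) than in Thy-Tet1+/+ (blue), with circle, square and triangle for replicates 1, 2 and 3 and the mean and SD (n = 3) in black. Fads1, Fads2, Mvd and Scap are members, Elovl2 and Sec24d are related genes, and no panel has overlapping groups.

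Genes of fatty acid burning (4) and of sterol uptake and transport (3) made up 7 of the 9 higher calls. The latter 3 were of 21 tested genes (14.3%, against 5.54% of all genes called higher). Of 16 genes of fatty acid breakdown 4 were called higher and 1 lower (31.2%, against 9.2% of all genes), with a median of 0.37. Among them were Ppara, the nuclear receptor of fatty acid oxidation (1.07), Hadhb of the mitochondrial trifunctional protein (0.85) and Acadl, an acyl-CoA dehydrogenase (0.80). Mlxipl, the carbohydrate-response factor ChREBP, was at 7.83, 3.37 and 4.61 CPM against 31.2, 22.4 and 8.08 CPM, a log2 fold change of 1.98 ± 0.54 (SE; adjusted p = 0.137 by edgeR's quasi-likelihood test). With the adipocyte covariate Mlxipl was at 0.85, Ppara at 0.35, Hadhb at 0.22 and Acadl at 0.44, and none of these was past the limits. The adipocyte marker level moved with these calls, and its part in them was not tested beyond this fit.

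The calls outside that group held in part under the covariate. Scarb1, the receptor that takes up cholesterol from high-density lipoprotein, was at 37.7, 33.5 and 35.8 CPM in Thy-Tet1+/+ and 73.2, 65.1 and 46.4 CPM in the libraries labelled Thy-Tet1-/-. Its groups lay apart, with a log2 fold change of 0.79 ± 0.18 (SE), and of 0.50 with the covariate. Gramd1a, which moves cholesterol from the plasma membrane to the endoplasmic reticulum, was at 0.77 and at 1.12 with it, the only higher call left. Cyp27a1, which makes an oxysterol, was at 0.91 and 0.85, and Pcyt2, of phosphatidylethanolamine synthesis, at 0.67 and 0.51. Acsl3 and Acsl5, which activate fatty acids to acyl-CoA, were lower, at -0.88 and -0.65, and at -0.73 and -0.77 with the covariate.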

How the data were processed

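RNA-seq counts per gene, which the authors deposited as whole numbers without normalization, were used as they stand. The submitters' processing notes name mm10, and the aligner, counting program and strand setting are not given in the sources used here. There were 0 other columns of values per library, and 27 symbols stored as dates were restored from NCBI identifiers. Counts were filtered with filterByExpr, scaled by TMM and tested with edgeR 4.0.16 (glmQLFit and glmQLFTest, R 4.3.3), with Benjamini-Hochberg adjustment over 14143 genes. The biological coefficient of variation was 0.327, so that replicate spread, more than depth, sets the precision. Sums over genes were compared with exact permutation tests. Lengths, positions and exon overlaps came from GENCODE M21 and promoters from RefSeq GRCm38.p6. Alternatives were RLE size factors, DESeq2 1.42.0, limma-voom (limma 3.58.1), 2 other filters, scaling to follicular markers, the replicate number as a block, each library left out and, added after the data had been seen, the adipocyte marker level as a covariate. The code was tested on simulated data. The members and lists were chosen with earlier results of these data known. All 33 members are named, with the 12 related lipid genes of largest fold change among those called, and Fads3 as the neighbour of Fads2. Replicates differed by far more than sampling noise, so none was counted as a duplicate.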

Additional observations from a re-analysis of the deposited data

How the results depend on the processing

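Acacb was called higher in 9 of 14 alternatives (RLE, DESeq2, limma-voom, both other filters, follicular scaling, the replicate block, without Thy-Tet1+/+ replicate 1 and without the library labelled Thy-Tet1-/- replicate 3). The called members rose from 2 to 4 with DESeq2 (Elovl6 also added) and to 5 with the replicate block (Fasn and Scd1 also added). They ranged from 2 to 5 when each library was left out, with 5 without Thy-Tet1+/+ replicate 1 (Acacb, Fasn and Scd1 added, all higher). Of all genes tested, 10% were called with DESeq2, 8.1% with the block and 10% without Thy-Tet1+/+ replicate 1, against 9.2% in the main fit. DESeq2 gave 3 members an adjusted p under 0.05 (Mvd, Fads1 and Fads2) and the other alternatives 0. Over all genes it gave 1210 against 16 with edgeR. Over all tested genes, same-numbered libraries did not deviate together (correlation -0.37 to -0.17). With 3 libraries a group this cannot settle whether the numbers pair the samples. Fasn and Scd1 ran in the same replicate order in both groups, and Elovl6 did not. The called related genes fell from 15 to 9 with the adipocyte covariate (1 higher, 8 lower) and ranged from 10 to 24 when each library was left out, with 24 without the library labelled Thy-Tet1-/- replicate 3 (20 higher). Without Thy-Tet1+/+ replicate 3 there were 10.

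Scaling to the follicular markers shifted the median of all genes to 0.21 and that of the members to 0.13, and 87.7% of all calls were then higher, against 60.2%. Tshr, at -2.16 on the log2 scale, differed most of the markers whose mean log level set this scaling. In that scaling Hmgcs1 was at 0.0849, Mvk, Fdps and Ebp at 0.11, Lss at 0.19, Cyp51 at 0.0658, Nsdhl at 0.12, Sc5d at 0.13, Me1 and Scd2 at 0.17 and Elovl5 at 0.0183, each with another sign than before but below the shift of all genes. Lss was at 0.0131 with limma-voom. With the adipocyte covariate the sign changed for Fdps (0.13), Lss (0.0304), Ebp (0.0397), Srebf1 (-0.0405), Acly (-0.53), Acaca (-0.51), Fasn (-0.30) and Scd1 (-0.28).

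When each library was left out, the log2 fold change ranged through 0 for Hmgcs1 (-0.22 to 0.0208), Fdps (-0.19 to 0.0878), Lss (-0.16 to 0.10), Nsdhl (-0.24 to 0.0555), Sc5d (-0.23 to 0.0661), Dhcr7 (-0.0424 to 0.33), Srebf1 (-0.0232 to 0.36), Insig1 (-0.40 to 0.0300), Insig2 (-0.0654 to 0.22), Stard4 (-0.0868 to 0.28), Acly (-0.12 to 0.43), Me1 (-0.22 to 0.25) and Scd2 (-0.16 to 0.21). In all, 40 of 462 member values changed sign, 16 gained the limits and 1 lost them (Fads2, -0.58 with follicular scaling), and 13 of the 33 members kept their sign in the 14 settings. The causes were not tested. The sterol response element was in 1 promoter also when spelled TCACCCCAC. With 3 libraries a group and a median ratio of 1.72 between the highest and lowest library, replicate spread, more than depth, limits these comparisons.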
